A study of Mus musculus with 8 samples.

Results

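The interleukin-1 (IL-1) receptor family senses the alarm and inflammatory cytokines IL-33, IL-18 and IL-1. ST2, encoded by Il1rl1, binds IL-33 together with the shared co-receptor chain encoded by Il1rap, and the IL-18 receptor is built likewise from the chains of Il18r1 and Il18rap. Inside the cell these receptors share 1 relay, in which the adaptor MyD88 recruits the kinases IRAK4 and IRAK1. On regulatory T cells (Tregs), the Foxp3-dependent CD4 T cells that restrain immune responses, ST2 is known as a mark of a subset that lives in tissues and expands with IL-33. The account below follows 10 genes chosen by name. The rule for them used no measured value, but they were chosen with earlier results of these data known. They are the receptor genes Il1rl1, Il1rap, Il18r1, Il18rap, Il1r1, Il1r2 and Sigirr, the adaptor gene Myd88 and the kinase genes Irak1 and Irak4. All 10 were among the 21524 gene symbols of the deposited table.

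The libraries were made from total RNA of mouse splenic Tregs that had been isolated with a cell sorter. There were 4 libraries labelled IL-2 (41 to 44), from the treatment with the Treg growth factor IL-2, and 4 labelled control (45 to 48). The series concerns an IL-2 mutein, given with CTLA-4 Ig to C57BL/6 recipients of mismatched BALB/c hearts or kidneys, and the part played by ST2-positive Tregs, for which mice lacking ST2 in Tregs were used elsewhere in the study. The labels of these 8 samples did not say which IL-2 was given, at what dose, what the controls received, whether the mice carried grafts, their strain, genotype, sex or age, or whether a library was 1 mouse. The p-values therefore measure the spread between libraries, which may be technical.

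The IL-2 libraries had an estimated depth of 4953546 to 6399417 reads, and the control libraries 4970819 to 6147508. Values below are normalised reads, recovered from the deposited variance-stabilised values, and they are not divided by gene length, so they compare libraries and not genes. All 8 Treg marker genes examined were present, with Foxp3 at 1643 to 2235 reads under IL-2 and 1123 to 1799 in control libraries. Their sum was 42374 to 49032 reads under IL-2 and 31630 to 32985 in controls, but the 8 did not move together. Il2ra, which gave most of that gap, averaged 18107 ± 1601 under IL-2 and 6935 ± 781 in controls (SD, n = 4 each). It rose with Lrrc32 and Tnfrsf18, Cd4 fell (2523 ± 354 under IL-2, 4136 ± 300 in controls, limma adjusted p = 0.000338), and Foxp3, Ikzf2, Ctla4 and Cd3e did not pass. Erythroid genes summed to at most 28.2 reads under IL-2 and were as sparse in controls (exact permutation p = 0.571). The Y-linked transcript Ddx3y was detected in 2 of the 4 IL-2 libraries (43 and 44) and 3 of the 4 control libraries (46, 47 and 48), so both groups mixed libraries with and without it. Across 10822 genes with a mean of at least 10 reads, 2162 (20%) differed between IL-2 and control libraries at an adjusted p under 0.05 (limma on log2 of normalised reads plus 5, Benjamini-Hochberg adjustment), 1173 (10.8%) higher and 989 (9.14%) lower with IL-2. Of the 10 members, 9 were tested and 4 passed: Il1rl1 rose, and Il18r1, Il18rap and Il1r2 fell. The 4 IL-2 libraries lay wholly above the 4 controls for 2 members and wholly below them for 4. One of the latter, Il1r1, had too few reads to be tested. Of all tested genes, 12.9% separated upwards and 10.9% downwards (23.8% in either direction), shares that leave out genes with as few reads as Il1r1.

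**Figure D1:**
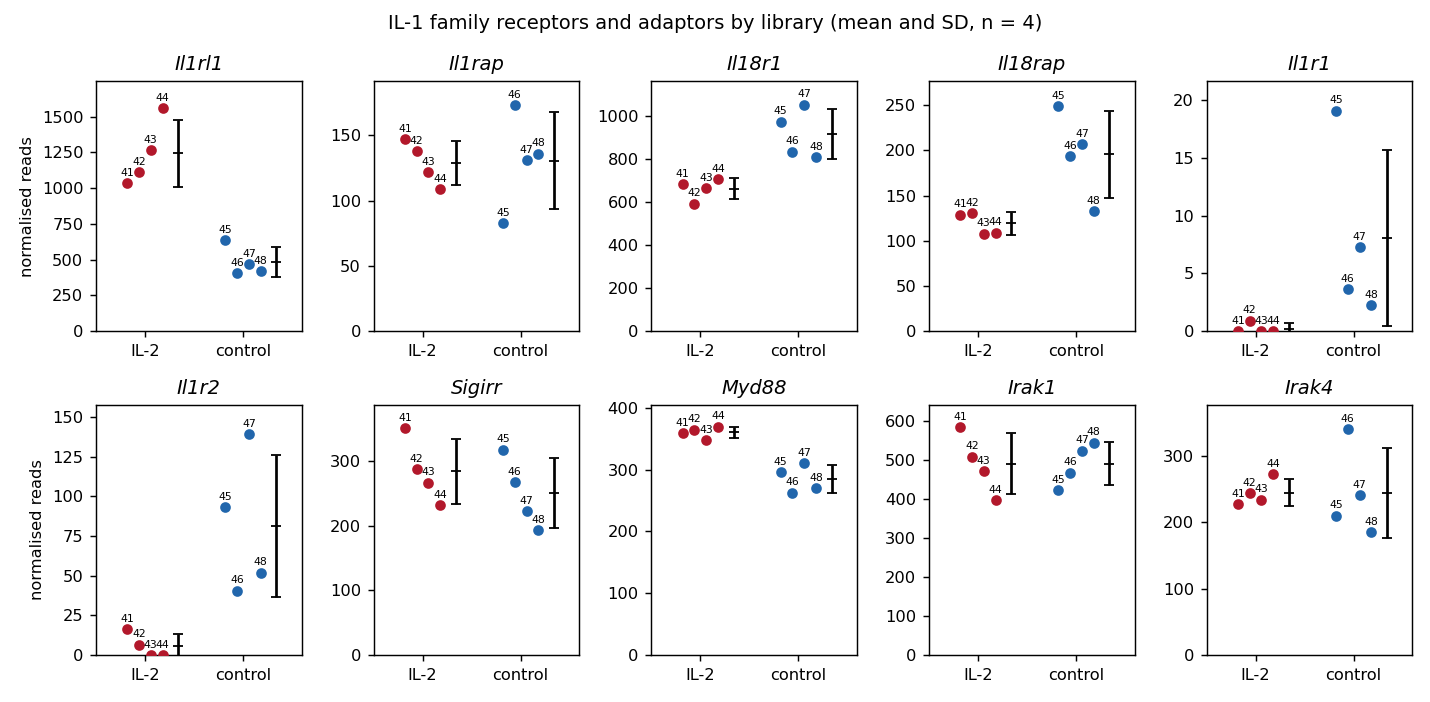
Normalised reads (vertical axis, linear, from 0) of the 10 members in each library, IL-2 in red on the left and control in blue on the right of each panel; numbers are library numbers and the black bar is the mean with its SD (n = 4). The groups separate for Il1rl1 and Myd88 with IL-2 above, and for Il18r1, Il18rap, Il1r1 and Il1r2 with IL-2 below.

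Il1rl1, the gene of the IL-33 receptor ST2, had 1036, 1111, 1264 and 1561 normalised reads in IL-2 libraries 41 to 44, against 639, 405, 467 and 423 in control libraries 45 to 48. Every IL-2 library lay above every control, with library 44 highest under IL-2 and library 45 highest among controls. The group means were 1243 ± 232 with IL-2 and 484 ± 107 in controls (SD, n = 4 each), 2.57-fold higher with IL-2. The difference on the log2(reads + 5) scale was 1.36 ± 0.16 (SE, 95% interval 1.01 to 1.70, limma adjusted p = 0.000102). By size it ranked 269th among the 1173 genes that rose. In bulk RNA a larger share of ST2-positive cells and more Il1rl1 RNA per cell cannot be told apart, and the table has 1 value for the gene, so it holds the membrane receptor and the secreted form of ST2 together.

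The rise of Il1rl1 was seen in libraries with and without Ddx3y. Among libraries with Ddx3y, Il1rl1 averaged 1413 reads over 2 libraries under IL-2 and 432 over 3 controls, a fold of 3.27. Among libraries without Ddx3y, it averaged 1074 in the 2 IL-2 libraries and was 639 in the single control, library 45, a fold of 1.68. Whether the effect differed between these strata was not tested. With Ddx3y as a covariate the difference was 1.35 (limma adjusted p = 0.000324). Markers of mast cells and basophils, which also carry ST2, gave few reads: Cpa3 and Mcpt8, the defining pair, and 3 more of the 7 listed genes were at 0 reads in every library. The list summed to 39.6 to 110 reads with IL-2 and 14.6 to 41.4 in controls (two-sided exact permutation p = 0.0857, 70 splits). Within it Kit rose, with 54.5 ± 27.5 reads with IL-2 and 5.65 ± 6.80 in controls (SD, n = 4 each, limma adjusted p = 0.00533). Ms4a2 averaged 23.2 reads with IL-2 and 23.4 in controls and did not pass (limma adjusted p = 0.851). Of the eosinophil list Siglecf, Epx and Prg2 were at 0 in every library, and Ccr3 alone gave 8.11 to 41.7 reads with IL-2 and 69.1 to 91.8 in controls. Their part in the difference of Il1rl1 was not tested.

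Il1rap, the gene of the co-receptor that ST2 and the IL-1 receptor need for signalling, had 147, 138, 122 and 109 reads with IL-2 and 83.1, 173, 131 and 136 in controls. The groups overlapped, with control library 45 lowest and control library 46 highest of all 8. The difference did not pass (0.01 ± 0.23 SE, 95% interval -0.49 to 0.52, limma adjusted p = 0.979). That interval still allows a change of about 0.5 on the log2 scale in either direction. Within the libraries with Ddx3y, Il1rap averaged 115 reads with IL-2 and 147 in controls, and without Ddx3y 142 with IL-2 and 83.1 in control library 45.

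Both chains of the IL-18 receptor fell with IL-2. Il18r1, whose product binds IL-18, had 684, 593, 665 and 706 reads with IL-2 against 975, 835, 1054 and 809 in controls, with no overlap. Its means were 662 ± 49.0 with IL-2 and 918 ± 116 in controls (SD, n = 4 each), 1.39-fold lower with IL-2 (difference -0.46 ± 0.11 SE, limma adjusted p = 0.00915). Il18rap, the accessory chain, had 129, 131, 108 and 109 reads with IL-2, against 249, 194, 207 and 133 in controls. Control library 48 lay just above the highest IL-2 library. The difference of Il18rap was -0.66 ± 0.21 (SE, adjusted p = 0.0397), and the call was lost without any 1 of the libraries 41 to 47 (adjusted p = 0.0124 to 0.118 over the 8 omissions). The ratio of the IL-2 mean to the control mean was 0.762 for Il18r1 and 0.609 for Il18rap in libraries with Ddx3y, and 0.655 and 0.523 in those without it.

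Natural killer cells are a known source of IL-18 receptor transcripts. Of their 7 listed markers 2 had enough reads to be tested, Klrb1c and Eomes, and both fell (limma adjusted p = 0.00919 and 0.00417). The 7 listed markers summed to 0 to 44.3 reads with IL-2 and 78.7 to 172 in controls (two-sided exact permutation p = 0.0286, the smallest that 70 splits allow). Of the defining pair, Ncr1 was at 0 in all IL-2 libraries and in all controls but library 45, which held 9.99 reads. Klrb1c had 0 to 7.95 reads with IL-2 and 18.3 to 80.4 in controls, and Eomes 0 to 26.9 with IL-2 and 40.4 to 73.8 in controls. The remaining markers had too few reads to show a fall or its absence. Gzma averaged 8.11 reads with IL-2 and 7.13 in controls. Klrd1 reached 1.12 reads in control library 48 alone, Klra8 reached 5.22 in control library 47 alone, and Klra4 was at 0 in every library. The 7 conventional helper T cell markers summed to 1236 to 1748 reads with IL-2 and 1881 to 2393 in controls (exact permutation p = 0.0286), most of it Il7r. Of the 3 tested, Cd40lg and Il7r fell, and Ifng, with a mean of 27.9 reads (17.2 to 40.6) with IL-2 and 10.7 (2.72 to 23.2) in controls, did not pass (limma adjusted p = 0.111). CD8 T cell markers summed to 56.2 to 90.2 with IL-2 and 53.4 to 103 in controls. Their part in the difference of Il18r1 and Il18rap was not tested.

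Il1r2 had the largest difference of the 9 tested members on the log2(reads + 5) scale, though not on the deposited scale, where Il1rl1 differed by 0.77 and Il1r2 by -0.50. Il1r2 encodes a decoy receptor that binds IL-1 without signalling. It had 16.2, 6.44, 0 and 0 reads in IL-2 libraries 41 to 44, against 93.2, 40.5, 139 and 51.9 in control libraries 45 to 48. The groups did not overlap, and IL-2 libraries 43 and 44 held none, where a count of 0 allows up to 3 reads. The means were 5.66 ± 7.66 with IL-2 and 81.2 ± 44.7 in controls (SD, n = 4 each), 14.3-fold lower with IL-2. The difference was -3.14 ± 0.55 (SE, adjusted p = 0.00178), the 13th largest among 989 genes that fell, and its size depended on the pseudocount, being -4.45 with 1 read added and -1.92 with 20. In libraries with Ddx3y, Il1r2 averaged 0 reads with IL-2 and 77.2 in controls, and without Ddx3y 11.3 with IL-2 and 93.2 in control library 45. In the annotation at hand an antisense transcript, Gm16894, overlaps the start of Il1r2, and whether the authors' counting used strand is not given in the sources used here.

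Il1r1, the gene of the signalling IL-1 receptor, was close to the limit of detection. It had 0, 0.918, 0 and 0 reads with IL-2 and 19.1, 3.67, 7.31 and 2.23 in controls. All IL-2 libraries lay below all 4 controls (two-sided exact permutation p = 0.0286), but the gene was below the filter of a mean of 10 reads, and no fold is given for counts this small. Of the listed neutrophil markers, a cell type known for Il1r2, S100a9 was at 0 in every library and S100a8 reached 0.948 reads in library 41 alone. The neutrophil list summed to 36.8 to 59.1 reads with IL-2 and 47.9 to 89.9 in controls (exact permutation p = 0.0571), most of it Cxcr2. Markers of monocytes, macrophages and dendritic cells summed to 713 to 994 reads with IL-2 and 1559 to 1854 in controls (exact permutation p = 0.0286), of which Ctss made up 847 ± 121 with IL-2 and 1663 ± 140 in controls (SD, n = 4 each), while Lyz2 held 0 reads in every IL-2 library and 5.55 to 14.5 in controls. B cell markers summed to 100 to 211 reads with IL-2 and 380 to 496 in controls (exact permutation p = 0.0286). Their part in the difference of Il1r1 and Il1r2 was not tested.

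The inhibitory receptor and the shared relay did not pass the test. Sigirr encodes a receptor that dampens IL-1 family signalling, and it had 351, 288, 267 and 232 reads with IL-2 against 318, 268, 223 and 193 in controls. The groups overlapped (difference 0.19 ± 0.18 SE, 95% interval -0.20 to 0.58, limma adjusted p = 0.522). Myd88, the adaptor gene, had 359, 365, 348 and 370 reads with IL-2 against 296, 263, 311 and 270 in controls. All IL-2 libraries of Myd88 lay above all controls, with means of 361 ± 9.38 with IL-2 and 285 ± 22.2 in controls (SD, n = 4 each), but its difference of 0.34 ± 0.11 (SE) narrowly missed the threshold across all genes (limma adjusted p = 0.0577). It passed on the deposited scale with a stricter filter (adjusted p = 0.0459, where 31.4% of 5261 genes passed) and without a filter (adjusted p = 0.0495, where 13.6% of 14904 passed).

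Irak4, the kinase gene that acts directly after MyD88, had 227, 244, 234 and 273 reads with IL-2 and 210, 341, 241 and 185 in controls. Irak1, the kinase gene that follows, had 585, 509, 471 and 397 with IL-2 and 423, 468, 524 and 545 in controls. The groups of both overlapped, with differences of 0.04 ± 0.18 (SE, 95% interval -0.36 to 0.43, limma adjusted p = 0.924) for Irak4 and -0.01 ± 0.13 (SE, 95% interval -0.30 to 0.29, adjusted p = 0.986) for Irak1. Reads of Irak1 were highest in IL-2 library 41 and lowest in IL-2 library 44, and those of Irak4 were both highest and lowest in control libraries, 46 and 48.

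**Figure D2:**
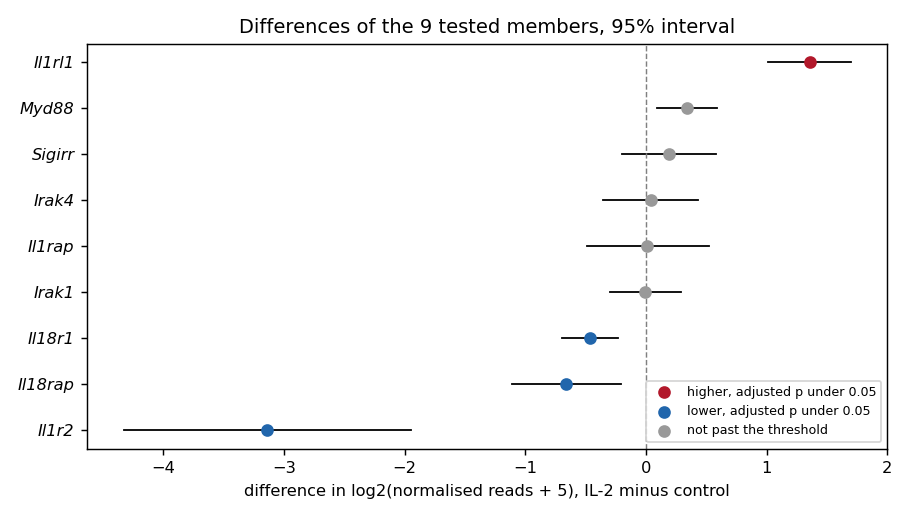
Difference in log2(normalised reads + 5), IL-2 minus control, of the 9 tested members (points) with the 95% interval from limma (lines, before adjustment). Il1rl1 lies at 1.36, Il18r1, Il18rap and Il1r2 lie at -0.46, -0.66 and -3.14, and the other 5 did not pass an adjusted p of 0.05.

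Whether Il1rl1 moved differently from its relatives was tested on the log2 ratio of its reads to those of each other tested member and of Foxp3, library by library. The tests were exact permutation tests, two-sided over 70 splits, and were adjusted over the 9 ratios. The ratio of Il1rl1 to Il18r1 was 0.60, 0.90, 0.92 and 1.14 with IL-2 and -0.61, -1.03, -1.17 and -0.93 in controls. This ratio of reads, which is not one of levels per length, was above 0 in every IL-2 library and below 0 in every control. The difference in this log2 ratio was 1.82 ± 0.16 (SE, exact p = 0.0286, adjusted p = 0.0367). The ratios to Il18rap, Il1r2, Sigirr, Myd88, Irak1 and Irak4 were also higher in all IL-2 libraries than in all controls (each exact permutation p = 0.0286, adjusted p = 0.0367). For Il18r1, Il18rap and Il1r2 this outcome was fixed beforehand, since Il1rl1 lay wholly above and these genes wholly below the controls. Their ratio tests add nothing to the single-gene results, though they count among the 9 in the adjustment. The differences in log2 ratio were 2.02 ± 0.23 for Il18rap and 4.50 ± 0.70 for Il1r2 (SE). For the inhibitor Sigirr the difference was 1.17 ± 0.27, and for the relay genes Myd88 1.02 ± 0.17, Irak1 1.36 ± 0.32 and Irak4 1.32 ± 0.29 (SE). With all 8 libraries, Il1rl1 thus rose relative to Sigirr and to each of these relay genes.

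The ratio of Il1rl1 to its co-receptor gene Il1rap was 2.78, 2.97, 3.32 and 3.78 with IL-2 and 1.21 to 2.87 in controls. Control library 45 reached into the IL-2 range, and the difference of 1.34 ± 0.42 (SE) did not pass (exact permutation p = 0.0571). The ratio to Foxp3 averaged -0.60 ± 0.35 with IL-2 and -1.66 in controls (SD, n = 4 each), a difference of 1.05 ± 0.33 (SE, exact permutation p = 0.0571), and library 45 again overlapped. Without library 45, 8 of the 9 ratios passed after adjustment. Without IL-2 library 42, 43 or 44 in turn, the exact permutation test passed 0 of 9 after adjustment and 5 of 9 at an unadjusted p under 0.05. All 72 differences obtained by leaving out a library kept their sign.

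**Figure D3:**
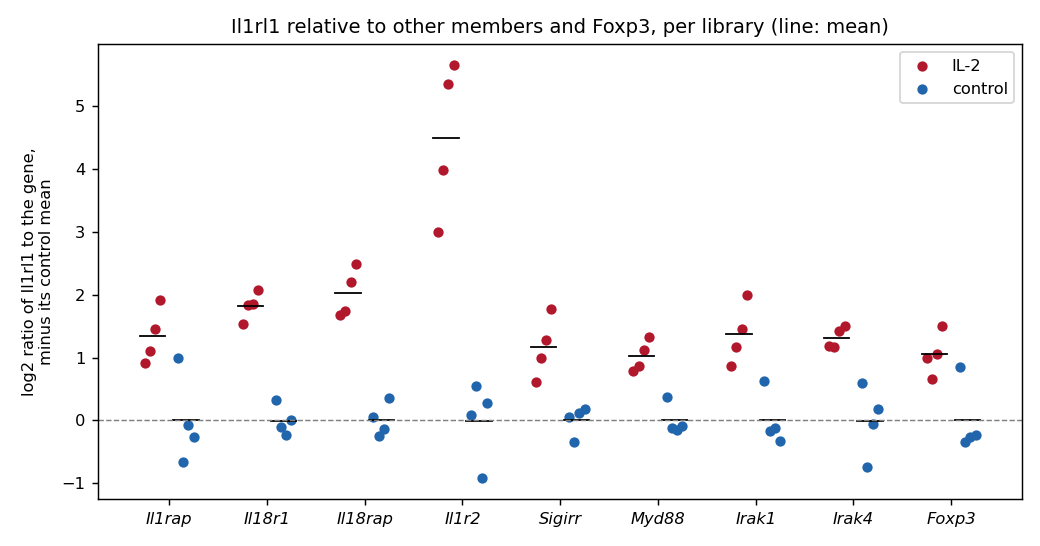
Log2 ratio of Il1rl1 to each gene on the horizontal axis per library, with the control mean of that ratio subtracted (vertical axis), IL-2 in red on the left and control in blue on the right; black lines are group means (n = 4). All IL-2 points lie above all control points except for Il1rap and Foxp3, where control library 45 overlaps.

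Several of the receptor genes are neighbours. In the RefSeq annotation of GRCm38.p6 the protein-coding genes Il1r2, Il1r1, Il1rl2, Il1rl1, Il18r1 and Il18rap follow each other on chromosome 1, between Map4k4 and Slc9a4. Along this row Il1r2 fell, Il1r1 had at most 0.918 reads with IL-2 and at most 19.1 in controls, Il1rl1 rose, and Il18r1 and Il18rap fell. Il1rl2, the gene of the IL-36 receptor, had 2.48 to 7.69 reads with IL-2 and 0 to 17.9 in controls, too few for the filter. Il1rapl1 and Il1rapl2, receptor relatives known from neurons, were at 0 in every library. Of the flanking genes, the kinase gene Map4k4 fell slightly (difference -0.31 ± 0.07 SE, limma adjusted p = 0.00822) and the ion exchanger gene Slc9a4 was at 0 in every library.

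The sequences upstream of the annotated starts are shown for the separate RefSeq starts of Il1rl1, which rose, and for its neighbours Il18r1 and Il18rap, which fell. They are the bases just before the start, from RefSeq windows of GRCm38.p6, all on the plus strand. Il18r1 also has separate starts in RefSeq, and only the bases before its most upstream start are shown. They stop short of the end of Il1rl1, which lies just before Il18r1. Capitals mark GATA or its reverse complement TATC, the core letters read by GATA factors, and no sequence shown held TTCNNNGAA, the core letters read by STAT factors, on either strand. The most downstream Il18r1 window, which is not shown, held both kinds of match.
Il1rl1 upstream start, chr1:40429320-40429569: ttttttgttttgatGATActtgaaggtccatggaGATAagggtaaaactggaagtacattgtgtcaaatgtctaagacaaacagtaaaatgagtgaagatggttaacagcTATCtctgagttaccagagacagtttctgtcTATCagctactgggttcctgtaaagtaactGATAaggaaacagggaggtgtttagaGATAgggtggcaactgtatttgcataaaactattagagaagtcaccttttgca
Il1rl1 downstream start, chr1:40439379-40439628: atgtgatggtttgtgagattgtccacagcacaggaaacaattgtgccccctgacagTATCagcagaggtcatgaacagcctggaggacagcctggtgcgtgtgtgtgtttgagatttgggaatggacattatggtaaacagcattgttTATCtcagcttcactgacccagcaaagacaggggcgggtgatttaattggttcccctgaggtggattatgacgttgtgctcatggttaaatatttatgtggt
Il18r1, chr1:40465422-40465551: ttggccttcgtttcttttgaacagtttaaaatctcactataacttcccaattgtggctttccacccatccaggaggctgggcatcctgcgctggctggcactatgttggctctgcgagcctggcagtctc
Il18rap, chr1:40515112-40515361: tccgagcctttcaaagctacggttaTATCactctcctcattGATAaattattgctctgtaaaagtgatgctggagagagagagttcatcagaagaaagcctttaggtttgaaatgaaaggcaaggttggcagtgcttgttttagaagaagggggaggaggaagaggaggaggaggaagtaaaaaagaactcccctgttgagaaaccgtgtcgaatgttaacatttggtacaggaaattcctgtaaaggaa

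The upstream Il1rl1 window held 6 GATA matches in 250 bases and the downstream window 2. Among all 32851 RefSeq windows of 250 bases, 53.6% held at least 1 GATA match, 24.2% at least 2 and 0.338% at least 6; these counts were compared after the matches were seen. GATA occurred in 6 of the 14 windows of the 9 members that had any window. Besides those of Il1rl1, they were the windows of Il1r2 (3 matches) and Il18rap (2), 1 of the windows of Il1r1 (3) and the most downstream window of Il18r1 (1), so genes with fewer reads under IL-2 held such matches too. TTCNNNGAA, present in 7.02% of all windows, occurred in 3 of these 14 windows, namely those of Il1r2 and Myd88 and the most downstream of 3 windows of Il18r1. These matches describe the letters only; which Il1rl1 start was used cannot be read from gene-level values. Gata3, the GATA factor gene of T cells, averaged 1197 ± 135 reads under IL-2 and 1034 ± 194 in controls (SD, n = 4 each, limma adjusted p = 0.286).

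Around the receptors, 74 further genes of the pathway were examined in lists, of which 52 had enough reads to be tested. Of these, 12 passed, 4 higher and 8 lower, with a median difference of -0.15 beside -0.01 over all genes tested. The passing share of the 52 should be read against the 20% of all tested genes that passed. The lists were counted and not tested as sets.

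Among ligands and their antagonists, IL-33 was not detected at this depth: Il33 was at 0 in all 8 libraries, which allows up to 3 reads in each, as were Il36a, Il36b, Il36rn and Il1f10. Il1a, Il1b, Il36g and Il18 averaged under 10 reads in both groups. Of the 2 tested, Il1rn, the gene of the IL-1 receptor antagonist, fell. It had 8.30, 16.8, 3.85 and 1.93 reads with IL-2 against 34.2, 37.4, 43.3 and 25.6 in controls, with no overlap (difference -1.78 ± 0.44 SE, limma adjusted p = 0.0129). Il18bp, which encodes a soluble trap for IL-18, averaged 119 ± 22.1 under IL-2 and 116 ± 23.0 in control libraries (SD, n = 4 each, limma adjusted p = 0.934).

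Of 24 tested adaptors, kinases and ubiquitin enzymes that act after the receptors, 4 rose, 2 fell and 18 did not pass, where 10.8% of all tested genes rose and 9.14% fell. Map3k8, the gene of the kinase TPL2, had 301, 357, 486 and 391 reads with IL-2 against 233, 170, 151 and 165 in controls, 2.14-fold higher and with no overlap (difference 1.07 ± 0.18 SE, limma adjusted p = 0.00148). Peli2 encodes an E3 ubiquitin ligase that acts on IRAK proteins, and it had 29.0, 12.1, 49.5 and 12.3 reads with IL-2 against 129, 127, 147 and 106 in controls, 4.94-fold lower (difference -2.27 ± 0.37 SE, adjusted p = 0.00123). Peli1, a related ligase, fell by 0.34 (adjusted p = 0.0114). These 3 calls held without any 1 library, and that of Peli1 was lost without the trend.

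The other rises among these relay genes were less firm. Irak2, a kinase gene related to Irak1, had 285, 316, 306 and 255 reads with IL-2 against 159, 110, 305 and 128 in controls, where control library 47 lay within the IL-2 range (difference 0.82 ± 0.26 SE, limma adjusted p = 0.0442). Traf6, the gene of the ubiquitin ligase that the IRAK kinases engage, had 628, 607, 637 and 494 reads with IL-2 against 470, 412, 464 and 494 in controls, where libraries 44 and 48 met (adjusted p = 0.0451). Ikbkb, the gene of the NF-kB-activating kinase IKK-beta, had 1062, 1258, 919 and 1110 with IL-2 against 741, 774, 775 and 993 in controls (adjusted p = 0.0306). The call of Irak2 was lost in 7, that of Traf6 in 7 and that of Ikbkb in 6 of 8 omissions of a library, and all 3 were lost with Ddx3y as a covariate. Map3k7, the kinase gene TAK1, and its partner genes Tab1, Tab2 and Tab3 did not pass (adjusted p = 0.388 to 0.935). Chuk, of the same list, had 299, 304, 249 and 282 reads with IL-2 against 362, 381, 377 and 337 in controls. Its groups did not overlap, but it did not pass (limma adjusted p = 0.054). Mapk9, Map2k6 and Map2k3 on the lower side and Ube2v1 on the higher side had an unadjusted limma p under 0.05 and did not pass. The median difference of this list was -0.08.

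**Figure D4:**
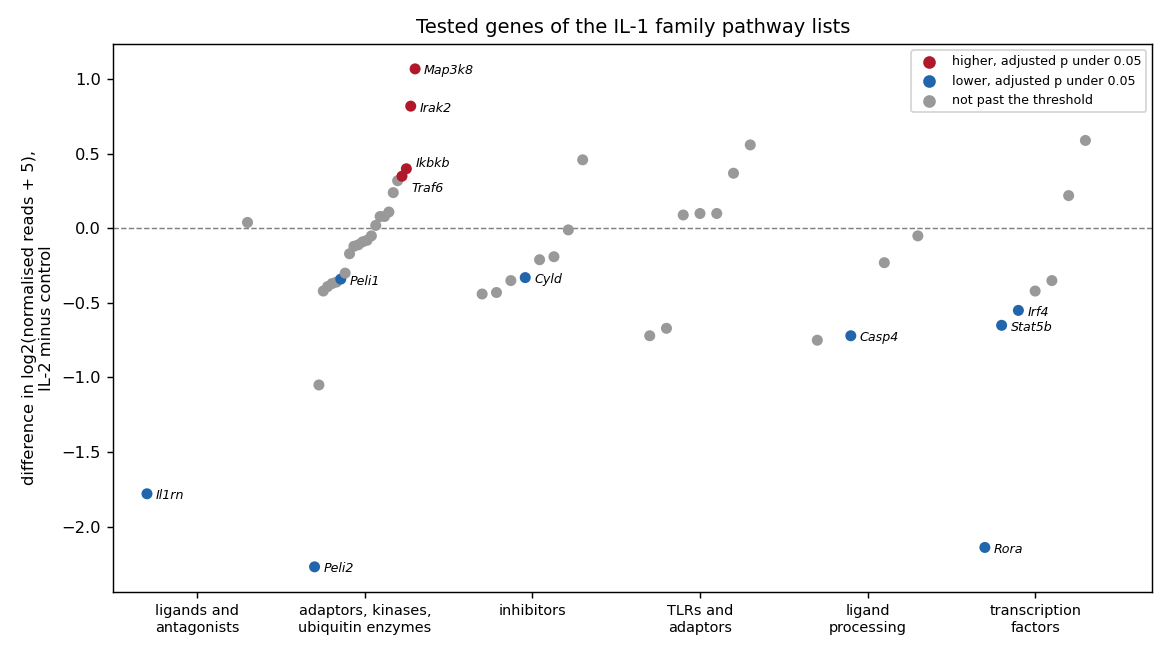
Difference in log2(normalised reads + 5), IL-2 minus control (vertical axis), of the 52 tested genes of the pathway lists, 1 point per gene, grouped by list along the horizontal axis; genes past an adjusted p of 0.05 are coloured and named. Map3k8 is the highest of them at 1.07, and Peli2 and Rora are the lowest at -2.27 and -2.14.

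Among 8 tested inhibitors induced by or acting on the pathway, Cyld, a deubiquitinase gene, fell, with 1467 to 1599 reads with IL-2 against 1828 to 1989 in controls (difference -0.33 ± 0.07 SE, limma adjusted p = 0.00413). The feedback genes Nfkbia and Tnfaip3, which are induced by NF-kB, did not pass (adjusted p = 0.540 and 0.686). Nfkbiz averaged 2475 ± 538 reads under IL-2 and 1784 ± 331 in control libraries (SD, n = 4 each, limma adjusted p = 0.0569). Zc3h12a, Otulin and Nfkbie lay on the lower side and did not pass (limma adjusted p = 0.102, 0.121 and 0.15). Like Nfkbiz on the higher side, they had an unadjusted p under 0.05. The median difference of the inhibitor list was -0.27. None of the 7 tested Toll-like receptors and adaptors passed in limma, where 1 (Tlr7) had an unadjusted p under 0.05. Of 4 tested genes of ligand processing, Casp4, an inflammatory caspase gene, fell (92.1 ± 19.4 reads with IL-2, 154 ± 23.5 in controls, SD, n = 4 each, limma adjusted p = 0.0309), a call lost in 5 of 8 omissions of a library and with Ddx3y as a covariate. Casp1 did not pass (adjusted p = 0.119), and Nlrp3 was at 0 in every library.

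Of 7 tested transcription factor genes linked to ST2-positive Tregs, 3 fell and 0 rose in limma. Over all tested genes 9.14% fell and 10.8% rose, and this short list was written with earlier results of these data known. Of the 4 that did not pass, 3 had an unadjusted p under 0.05, Nfil3 on the higher side and Stat5a and Batf on the lower side. Nfil3 averaged 213 ± 61.7 reads under IL-2 and 136 ± 24.2 in controls (SD, n = 4 each, limma adjusted p = 0.0883), and Stat5a 452 ± 81.9 under IL-2 and 571 ± 18.3 in controls (adjusted p = 0.0815). Rora, a nuclear receptor gene of tissue Tregs, had 273 ± 41.4 reads with IL-2 and 1226 ± 256 in controls, 4.49-fold lower (difference -2.14 ± 0.15 SE, limma adjusted p = 3.22e-06). Irf4, needed for effector Tregs, fell by 0.55 (adjusted p = 0.00723) and Stat5b, a transducer of the IL-2 signal, by 0.65 (adjusted p = 7.92e-05). Batf averaged 345 ± 60.3 reads under IL-2 and 462 ± 74.4 in control libraries (SD, n = 4 each, limma adjusted p = 0.0838).

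The genes whose profile over the 8 libraries lay nearest to that of Il1rl1 were Trat1, Apobr, Syne3, Lgals1 and Nme1, by the root mean square difference of log2(reads + 5) after centring each gene, among genes with a mean of at least 100 reads. The distances were 0.16, 0.18, 0.21, 0.21 and 0.22. Trat1, which encodes a T cell receptor-associated adaptor, had 1016, 1026, 1159 and 1606 reads with IL-2 against 486, 445, 415 and 445 in controls. Like Il1rl1, it was highest in library 44. Lgals1, the galectin-1 gene, had 1635, 1574, 1859 and 2476 with IL-2 against 686, 664, 660 and 780 in controls. The IL-2 libraries lay above the controls in all 5, so this likeness includes the difference between the groups.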

How the data were processed

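RNA of flow-sorted splenic Tregs was made into stranded total RNA libraries, per the labels' protocols. The authors deposited 1 table of variance-stabilised expression on a log2 scale; per the submitters' processing notes, Salmon, DESeq2 and GRCm39 were used. Their settings, the annotation and any filter were not stated in the sources at hand. Columns were matched to samples by library number.

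Normalised reads were recovered by inverting the parametric variance-stabilising formula, whose scale is set by the lowest value (8.69, standing for 0 reads and shared by all 8 libraries). The 5 commonest values above 0 in each library gave whole multiples of 1 read within 0.001 in 40 of 40 cases. Of values under 100 reads, 17.2% were whole within 0.01, as estimated counts need not be, so no count test was run. On the deposited scale 1 unit above the lowest value is 206 normalised reads, so differences there are compressed. Salmon divides ambiguous reads by estimation, so related genes may share reads.

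Genes with a mean of at least 10 reads over all 8 libraries were fitted with limma (trend) on log2(reads + 5), IL-2 minus control, without covariates; p-values were adjusted by Benjamini-Hochberg over 10822 genes, with a threshold of 0.05. Changes of genes at a few reads could be missed at this depth. For single values, exact permutation tests (two-sided) were used. Members' exact p-values are 10 tests, not adjusted. The members, lists and tests were chosen with earlier results of these data known. Named genes were the 10 members, tested pathway genes, the chromosome 1 neighbours, cell type markers (sums and defining genes) and the 5 nearest profiles. Kit, Ms4a2, Cxcr2, Ctss, Cd68, Itgax, Adgre1, Cd14, Ccr3, Ifng, Cd4, Tnfrsf18, Lrrc32, Ctla4, Ikzf2, Cd3e, Prg2, Eomes, Gzma, Klrd1, Klra8 and Klra4 were singled out of their marker lists after their values were seen.

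Promoter windows came from RefSeq on GRCm38.p6, another build than that of the table, and were matched by symbol for 9 of 10 members; Sigirr was not matched. The limma step was tested on simulated data. The fit used limma 3.58.1 in R 4.3.3; tables used pandas 2.3.3 and numpy 2.4.6 in Python 3.11.15.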

Additional observations from a re-analysis of the deposited data

Results flagged for a closer look

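In each group of 4 libraries, a library was singled out when its gap to the nearest other exceeded the share of the group's range set by Dixon's 95% critical value. Over 142 groups of members, tested pathway genes and ratios, 8 were found; chance gives about 1 in 20 groups. Control library 45 stood apart in the log2 ratio of Il1rl1 to Foxp3, at -0.81, while no other control exceeded -1.89, and in the ratio to Myd88, at 1.10 beside 0.58 to 0.64. IL-2 library 42 stood apart for Il1r1 with 0.918 reads beside 0 in the others, for Il18bp with 86.2 beside 129 to 132, and for Tlr2 with 19.3 beside 33.6 to 34.8. IL-2 library 41 held 503 reads of Map2k4 beside 393 to 407. Control library 47 held 702 reads of Ube2v1 beside 591 to 604, and control library 48 held 993 reads of Ikbkb beside 741 to 775.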

How the results depend on the processing

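Il1rl1, Il18r1 and Il1r2 kept their direction and passed in every alternative in which they were tested. The difference of Il1rl1 ranged from 0.77 (deposited scale) to 1.37 over 13 other settings and from 1.24 to 1.5 without 1 library. Il18rap passed in 9 of 12 other settings and was lost without a filter (adjusted p = 0.0577), without trend (0.052) and with array weights (0.0516). Members past the threshold numbered 4, 3 to 5 over the other settings and 3 to 4 without 1 library; the 5 came without a filter, where Myd88 and Il1r1 passed and Il18rap did not. Genes past the threshold numbered 2162, 1650 to 2199 over the other settings (13.6% to 31.4% of those tested) and 1762 to 1946 without 1 library. Pathway genes numbered 12, 8 to 12 over the other settings and 8 to 11 without 1 library. The ratios of Il1rl1 passed in 7 of 9, in 7 to 8 on other scales and in 0 to 8 without 1 library (0 without IL-2 library 42, 43 or 44). Among these 9 are the ratios to Il18r1, Il18rap and Il1r2, whose full separation was fixed by that of the single genes. The exact test of single members passed in 6 of 10, in 6 on the deposited scale and in 2 to 6 without 1 library (2 without library 42, 3 without 41, 43 or 44); with 35 splits its smallest p is 0.0286. Quantile normalization and centring library medians moved the median over all genes to -0.03 and -0.04, against -0.01. No paired analysis was possible because the groups share no replicate number.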
